A study of Mus musculus with 4 samples.

Results

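The 7 genes examined encode proteins that read or help to hold H3K9 methylated chromatin, and they were chosen by symbol from the 56980 genes of the matrices. They are the 3 HP1 genes Cbx5 (HP1α), Cbx1 (HP1β) and Cbx3 (HP1γ), the HUSH complex subunits Mphosph8 (MPP8) and Pphln1 (periphilin), Morc2a, and Lbr, the lamin B receptor. Their unique molecular identifier (UMI) counts were summed over the cells of each class in each library and compared between TKO and Ctrl. The libraries came from dorsal skin labelled E16.5, sorted for Epcam and for α6 integrin (CD49f), with 2 libraries per group. All 4 embryos were Suv39h1 f/f, Suv39h2-/- and Setdb1 f/f, and all received tamoxifen. The Ctrl embryos lacked Cre (K14CreERT2-) and the TKO embryos carried it (K14CreERT2+), so that Suv39h2 was missing in both groups. Per the study's methods, each library was 1 embryo of mixed background, K14CreERT2 acts in basal keratinocytes, and recombination was mosaic, so a TKO library also holds cells that kept floxed alleles.

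HP1 proteins bind H3K9me3 through a chromodomain and recruit partners through a chromoshadow domain. HP1α and HP1β are concentrated at pericentromeric heterochromatin, while HP1γ is also found over active genes. MPP8 has a chromodomain for the same mark and, together with TASOR and periphilin, forms the HUSH complex, which silences newly integrated and intronless DNA with SETDB1 and with MORC2, a chromatin-compacting ATPase. LBR spans the inner nuclear membrane, binds lamin B and HP1 and tethers heterochromatin to the nuclear edge, and its membrane part is a sterol reductase of cholesterol synthesis. The readers depend on the mark that the deleted enzymes place, which makes their own transcript levels of interest in this model.

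Keratinocytes numbered 2847 and 2993 in Ctrl and 1574 and 1794 in TKO, with 52720647 to 68328625 summed UMIs per library. Keratinocytes were divided into basal-like, hair follicle-like and differentiating-like cells by clustering that left out the 7 genes, while 287 and 309 Ctrl and 134 and 143 TKO cells stayed unnamed and, like the Merkel-like cells, count only in the sums over all keratinocytes. One unnamed cluster of 79 cells held 3 Ctrl cells. Every pair of libraries shared at most 4 cell barcodes. The median TKO keratinocyte held more UMIs (30031 and 28068) than the median Ctrl keratinocyte (21966 and 17333). Levels are CPM, the UMIs of a gene scaled to a common total per library, given for Ctrl replicates 1 and 2 and then TKO replicates 1 and 2. All of the 7 genes passed the expression filter in every class. Of the targeted genes, Setdb1 stood at 67.7 and 58.2 CPM in Ctrl and at 39.4 and 42.4 CPM in TKO keratinocytes (log2 change -0.64, SE 0.126, edgeR adjusted p = 0.0453), while Suv39h1 (24.4 and 25.3 against 24.8 and 19.99 CPM) was not called. Suv39h2 (13.9 and 17.2 against 22.5 and 16.1 CPM) was not called either, and 3′ tags of all 3 genes may lie outside the deleted part.

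The promoters of Lbr and Cbx3, which had the largest changes among the 7 genes in keratinocytes, are shown from RefSeq (GRCm38.p6), from 250 bases before the annotated start to 50 bases after it, 5′ to 3′ along the gene's strand. Capitals mark matches on either strand to the CCAAT box (CCAAT), to the cell cycle homology region of G2 and M phase genes (CHR, TTTGAA) and to 4 E2F site forms (TTTCCCGC, TTTCGCGC, TTTGCCGC and TTTGGCGC), none of which overlap each other here. The windows are chr1:181842352-181842651 (minus strand) for Lbr and chr6:51470366-51470665 (plus strand) for Cbx3.
Lbr: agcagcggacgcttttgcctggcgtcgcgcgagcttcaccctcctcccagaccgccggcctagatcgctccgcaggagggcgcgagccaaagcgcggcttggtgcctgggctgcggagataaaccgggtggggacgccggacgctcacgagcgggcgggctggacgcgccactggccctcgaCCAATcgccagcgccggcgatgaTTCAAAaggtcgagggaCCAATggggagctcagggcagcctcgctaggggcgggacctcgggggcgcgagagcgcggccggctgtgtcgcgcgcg
Cbx3: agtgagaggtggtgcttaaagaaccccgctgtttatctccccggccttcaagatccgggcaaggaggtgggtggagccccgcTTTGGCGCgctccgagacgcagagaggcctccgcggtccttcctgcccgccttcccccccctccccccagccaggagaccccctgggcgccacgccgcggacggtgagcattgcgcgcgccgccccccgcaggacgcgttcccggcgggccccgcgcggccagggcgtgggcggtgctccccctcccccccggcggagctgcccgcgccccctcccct
The Lbr window held CCAAT at bases -68 to -64 and -28 to -24 from the start, with a reversed CHR (TTCAAA) at -45 to -40 between them. Of 32851 RefSeq promoter windows of this length, 37.4% held CCAAT, 17.9% held the CHR and 2.09% held at least 2 CCAAT boxes together with a CHR. The Cbx3 window shown held TTTGGCGC at -168 to -161, while the other Cbx3 window in RefSeq (chr6:51471002-51471301) held no match, and an E2F form was found in 2.26% of windows. Among the other genes, 11 windows having been matched to the 7 genes, the Cbx5 window with a match held 1 CCAAT box, the Mphosph8 window held 2, and the Morc2a windows held 1 CCAAT box in the first and 1 CHR in the second. No match was found for Cbx1 or Pphln1. These matches describe letters only.

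Across all keratinocytes none of the 7 genes was called at an edgeR adjusted p under 0.05, in a comparison in which 6.79% of 20001 tested genes were called. At an unadjusted p under 0.05 there were 2 of the 7, Lbr and Cbx3, beside 5004 of the 20001 genes tested. DESeq2 called Lbr alone (adjusted p = 0.038). The median log2 change of the 7 genes was 0.21, and that of all genes tested was -0.02. With each cell thinned to 5000 UMIs, which left out 4 to 39 shallower cells per library, an Lbr UMI was found in 23.7% and 23.4% of Ctrl and 29.2% and 28.4% of TKO keratinocytes. Without thinning the shares were 62.7% and 55.8% in Ctrl and 79.6% and 75.5% in TKO. Lbr is broadly expressed, so that no class serves as a background, and at 5000 UMIs the lowest shares among the classes examined were 10.7% to 18.0% of fibroblast-like cells per library.

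**Figure D1:**
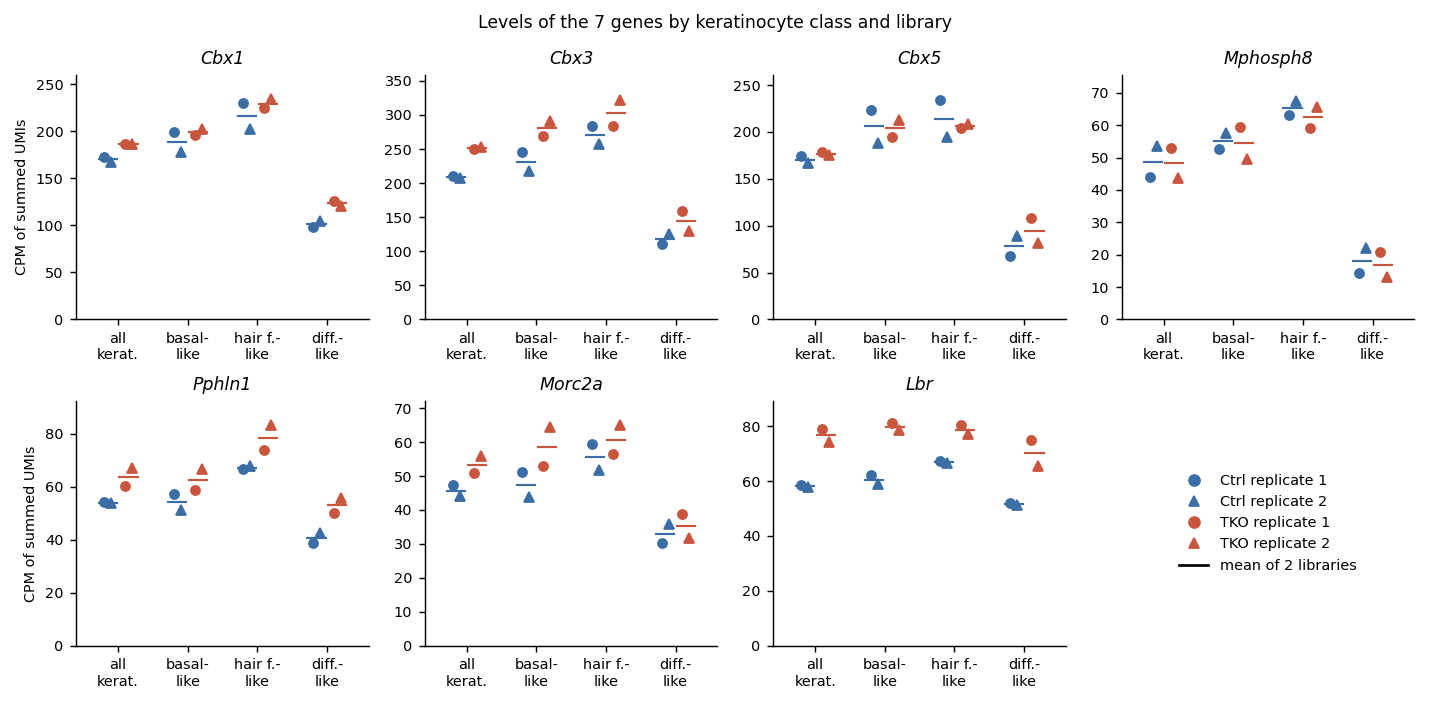
Level of each of the 7 genes (CPM of summed UMIs, linear axis from 0) in all keratinocytes and in 3 classes, with 1 point per library and a line at the mean of 2 libraries. Lbr of both TKO libraries lies above both Ctrl libraries in every class shown, and all 7 genes are lowest in differentiating-like cells.

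Among the HP1 genes, Cbx3 (ENSMUSG00000029836, GRCm39 chr6:51447082-51460691, plus strand) differed most. Its keratinocyte level was 211 and 207 CPM in Ctrl and 250 and 253 CPM in TKO. The TKO libraries lay above the Ctrl libraries without overlap, by 0.25 on the log2 scale (SE 0.089, 95% interval 0.03 to 0.47, edgeR adjusted p = 0.159), which did not pass the test. In basal-like cells, where 14.1% of 17365 genes were called, Cbx3 stood at 245 and 218 CPM in Ctrl and 270 and 291 CPM in TKO (log2 change 0.28, SE 0.112, edgeR adjusted p = 0.143). Reads from its processed pseudogenes summed to at most 1.49 CPM in these classes. The gene overlaps Hnrnpa2b1 on the opposite strand, which itself stood at 684 and 678 CPM in Ctrl and 764 and 743 CPM in TKO keratinocytes, and whether reads were counted by strand is not given in the sources used here.

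Cbx1 (ENSMUSG00000018666, chr11:96679933-96700423, plus strand), which encodes HP1β, had keratinocyte levels of 173 and 168 CPM in Ctrl and 186 and 186 CPM in TKO. The groups were apart by a small step of 0.11 on the log2 scale (SE 0.089, 95% interval -0.11 to 0.33, edgeR adjusted p = 0.493). Within basal-like cells they overlapped, at 199 and 178 CPM in Ctrl and 196 and 203 CPM in TKO.

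Cbx5 (ENSMUSG00000009575, chr15:103099505-103148419, minus strand), which encodes HP1α, stood at 174 and 167 CPM in Ctrl and 178 and 175 CPM in TKO keratinocytes. The log2 change of 0.03 had a 95% interval of -0.19 to 0.26. In basal-like cells Ctrl replicate 1 was the highest library (224 CPM), Ctrl replicate 2 the lowest (189 CPM), and the TKO libraries fell between them (195 and 213 CPM). A change in Cbx5 of more than 0.30 on the log2 scale in basal-like cells lay outside the interval of -0.30 to 0.28. The gene overlaps Hnrnpa1 on the opposite strand (555 and 634 CPM in Ctrl and 714 and 621 CPM in TKO keratinocytes), so that part of its counts could belong to that gene.

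The HUSH subunits and Morc2a were not called in any class. Mphosph8 (ENSMUSG00000079184, chr14:56905666-56935542, plus strand) gave 44.0 and 53.5 CPM in Ctrl and 52.9 and 43.8 CPM in TKO keratinocytes. Replicates of 1 genotype differed as much as the genotypes did, and the log2 change was -0.03 (SE 0.132, 95% interval -0.36 to 0.30). Pphln1 (ENSMUSG00000036167, chr15:93296209-93389810, plus strand) gave 54.1 and 53.8 CPM in Ctrl and 60.2 and 66.9 CPM in TKO. Both TKO libraries were higher, by 0.22 on the log2 scale (SE 0.108, 95% interval -0.05 to 0.49, edgeR adjusted p = 0.275). Morc2a (ENSMUSG00000034543, chr11:3598782-3641352, plus strand), the mouse form of MORC2, gave 47.3 and 44.0 CPM in Ctrl and 50.9 and 55.8 CPM in TKO. The groups did not overlap and the log2 change was 0.21 (SE 0.113, 95% interval -0.07 to 0.49, edgeR adjusted p = 0.32). Pphln1 overlaps Zcrb1 and Morc2a overlaps Tug1 on the opposite strand, so that part of their counts could belong to those genes.

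Lbr (ENSMUSG00000004880, chr1:181641631-181672984, minus strand) was the gene of the 7 that passed the test between genotypes in a cell class. In basal-like cells it stood at 62.1 and 58.8 CPM in Ctrl and at 81.1 and 78.5 CPM in TKO, from 1716 to 2560 UMIs per library. Both TKO libraries were higher by more than the replicates differed, and Lbr rose 1.33-fold (95% interval 1.13 to 1.55; log2 change 0.41, SE 0.0963, edgeR adjusted p = 0.0364). This was 1 of 7 genes called, beside 14.1% of all genes tested in basal-like cells. Across all keratinocytes Lbr stood at 58.7 and 57.9 CPM in Ctrl and 79.1 and 74.4 CPM in TKO, and it was not called (log2 change 0.38, SE 0.0869, edgeR adjusted p = 0.0627). The call in basal-like cells did not survive the removal of any single library (adjusted p = 0.0547 to 0.214, log2 change 0.37 to 0.44), and with the replicate numbers as a block the adjusted p was 0.0992. It was also lost without the expression filter (adjusted p = 0.055), in cells thinned to 5000 UMIs (0.116), with at least 3000 genes per cell (0.0682) and at a Leiden resolution of 2 (0.0559). The basal-like class also differed between genotypes in marker levels. Its 8 basal markers summed to 18019 and 20670 CPM in Ctrl and 14055 and 17881 CPM in TKO, and the 9 differentiating markers to 1093 and 889 CPM in Ctrl and 384 and 651 CPM in TKO, and their part in the Lbr change was not tested. Its cells also came from different clusters of a first clustering, made on all genes. A keratinocyte cluster singled out there after the data were seen, led by Tagln and Acta2, held 21 and 24 Ctrl but 317 and 230 TKO cells, and it made up 1.19% and 0.897% of basal-like cells in Ctrl and 20.9% and 18.2% in TKO. In basal-like cells outside that cluster Lbr stood at 62.2 and 58.7 CPM in Ctrl and 78.0 and 77.9 CPM in TKO, still without overlap, and in its TKO cells at 92.7 and 80.7 CPM.

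In hair follicle-like cells, where 5.97% of genes were called, none of the 7 genes passed the test. Lbr stood at 67.3 and 66.5 CPM in Ctrl and 80.3 and 77.2 CPM in TKO (log2 change 0.26, SE 0.103, edgeR adjusted p = 0.19). Cbx5 gave 234 and 195 CPM in Ctrl and 204 and 208 CPM in TKO, with the TKO libraries inside the Ctrl range. In differentiating-like cells, where 1.32% of genes were called, none of the 7 passed either, and Lbr stood at 52.2 and 51.4 CPM in Ctrl and 75.1 and 65.5 CPM in TKO (log2 change 0.34, SE 0.12, edgeR adjusted p = 0.259). Within the called cycle phases of this class, which are defined further on, Lbr overlapped between genotypes, with 43.6 and 40.03 CPM in Ctrl and 43.2 and 47.5 CPM in TKO among G1-called cells and 112 and 98.9 CPM against 110 and 123 CPM among G2M-called cells. G2M-called cells made up 11.6% and 16.1% of the class in Ctrl and 37.2% and 20.1% in TKO. This class also differed in its own markers, whose summed level was 60998 and 55884 CPM in Ctrl and 27422 and 44002 CPM in TKO, and the part of either shift in the Lbr values was not tested. Counts at an unadjusted p under 0.05 were 1 of 7 in each of these classes. Over all genes tested they were 3510 of 15494 in hair follicle-like and 2158 of 13725 in differentiating-like cells. A class-by-genotype test called no difference in the effect on Lbr between classes. The difference of hair follicle-like minus basal-like was -0.17 (95% interval -0.40 to 0.06, edgeR adjusted p = 0.668) where 0.281% of genes were called. That of differentiating-like minus basal-like was -0.12 (95% interval -0.35 to 0.11, edgeR adjusted p = 0.577) where 4.52% were called. For the other 6 genes the adjusted p of these differences was at least 0.364.

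**Figure D2:**
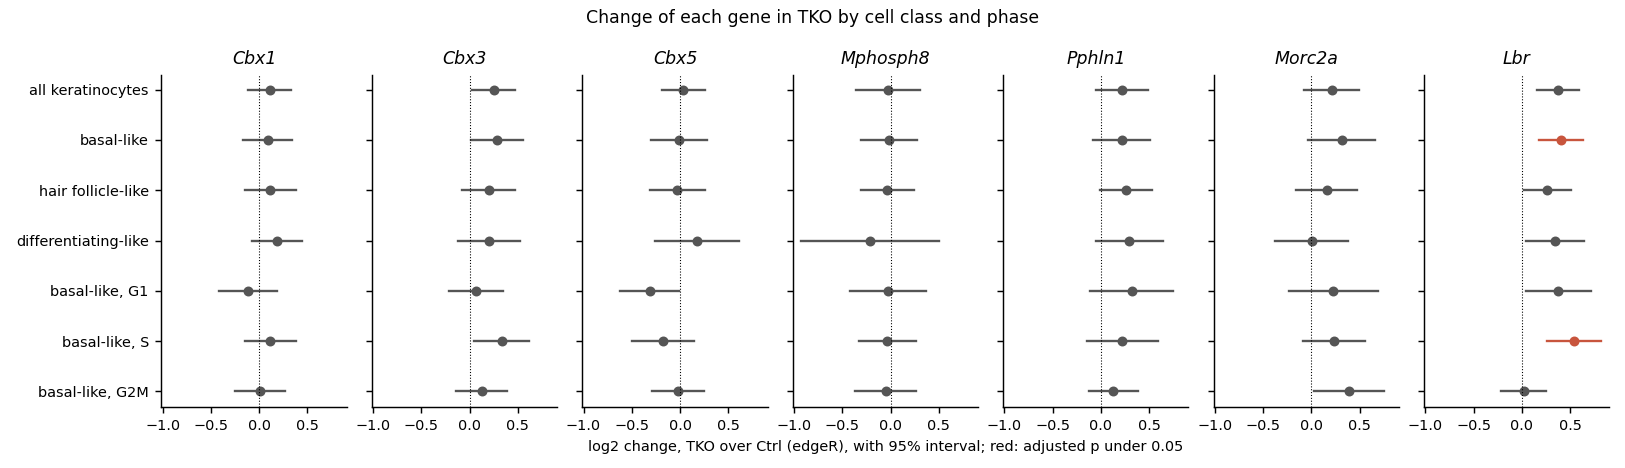
Log2 change of TKO over Ctrl for each of the 7 genes, with edgeR's 95% interval, in all keratinocytes, 3 classes and 3 called phases of basal-like cells, from 2 libraries per genotype. Red marks an adjusted p under 0.05, which Lbr reached in basal-like cells and in S-called basal-like cells, while its interval in G2M-called cells runs from -0.21 to 0.25.

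The 7 genes also differed between keratinocyte classes within a library. Summed over all cells of a class, every one of them was lower in differentiating-like than in basal-like cells in 4 of 4 libraries. Mphosph8 had the widest gap, with a mean log2 ratio of -1.68 (SD 0.26, n = 4 libraries), from 52.7, 57.8, 59.3 and 49.4 CPM in basal-like cells to 14.5, 21.9, 20.7 and 13.0 CPM in differentiating-like cells. The HP1 genes followed, with mean log2 ratios of -1.26 for Cbx5 (SD 0.377), -0.97 for Cbx3 (SD 0.222) and -0.79 for Cbx1 (SD 0.158), whose neighbouring values lie within their spread. Morc2a had -0.63 (SD 0.324) and Pphln1 -0.33 (SD 0.154). Lbr had the narrowest gap in these class sums, -0.20 (SD 0.0684). The classes differ in phase mix, with 61.8% to 87.9% of differentiating-like and 14.5% to 36.6% of basal-like cells called G1. Within a called phase the Lbr gap turned in direction, with differentiating-like cells higher by 0.22 among G2M-called cells (SD 0.124, higher in 4 of 4 libraries) and by 0.10 among G1-called cells (SD 0.238, higher in 3 of 4). The other 6 genes remained lower in differentiating-like cells in 4 of 4 libraries in both phases, apart from Pphln1 among G2M-called cells (lower in 2 of 4). Among G2M-called cells the mean log2 ratio was -0.18 for Cbx5 (SD 0.105) and -1.25 for Mphosph8 (SD 0.231). Between hair follicle-like and basal-like cells the mean log2 ratios were smaller, from 0.04 for Cbx5 (higher in 3 of 4 libraries) to 0.32 for Pphln1 (higher in 4 of 4).

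Within basal-like cells the genes also varied with cycle phase, which was called from S and G2M gene lists with Cbx5 and Lbr taken out and after thinning each cell to 5000 UMIs. Lbr was higher in G2M-called than in G1-called cells in 4 of 4 libraries, with a mean log2 ratio of 1.23 (SD 0.256). Cbx5 was also higher than in G1, by 0.85 in G2M-called cells (SD 0.144) and by 0.97 in S-called cells (SD 0.0758). These 2 means lie within their spread. In TKO replicate 1 Cbx5 was lower in S-called than in G2M-called cells (201 against 207 CPM). Cbx3 was 0.59 higher in G2M-called cells (SD 0.0568) and Cbx1 0.36 higher (SD 0.0629). Mphosph8 (0.11, SD 0.123), Pphln1 (0.10, SD 0.236) and Morc2a (0.05, SD 0.126) had mean ratios within their own spread over libraries. The same order of Lbr over the HP1 genes was seen in hair follicle-like cells, where the mean log2 ratio of G2M to G1 was 1.22 for Lbr (SD 0.452) and 0.54 for Cbx5 (SD 0.0821). In differentiating-like cells the order was different, with 2.001 for Cbx5 (SD 0.161), 1.51 for Cbx3 (SD 0.0697) and 1.35 for Lbr (SD 0.0308).

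**Figure D3:**
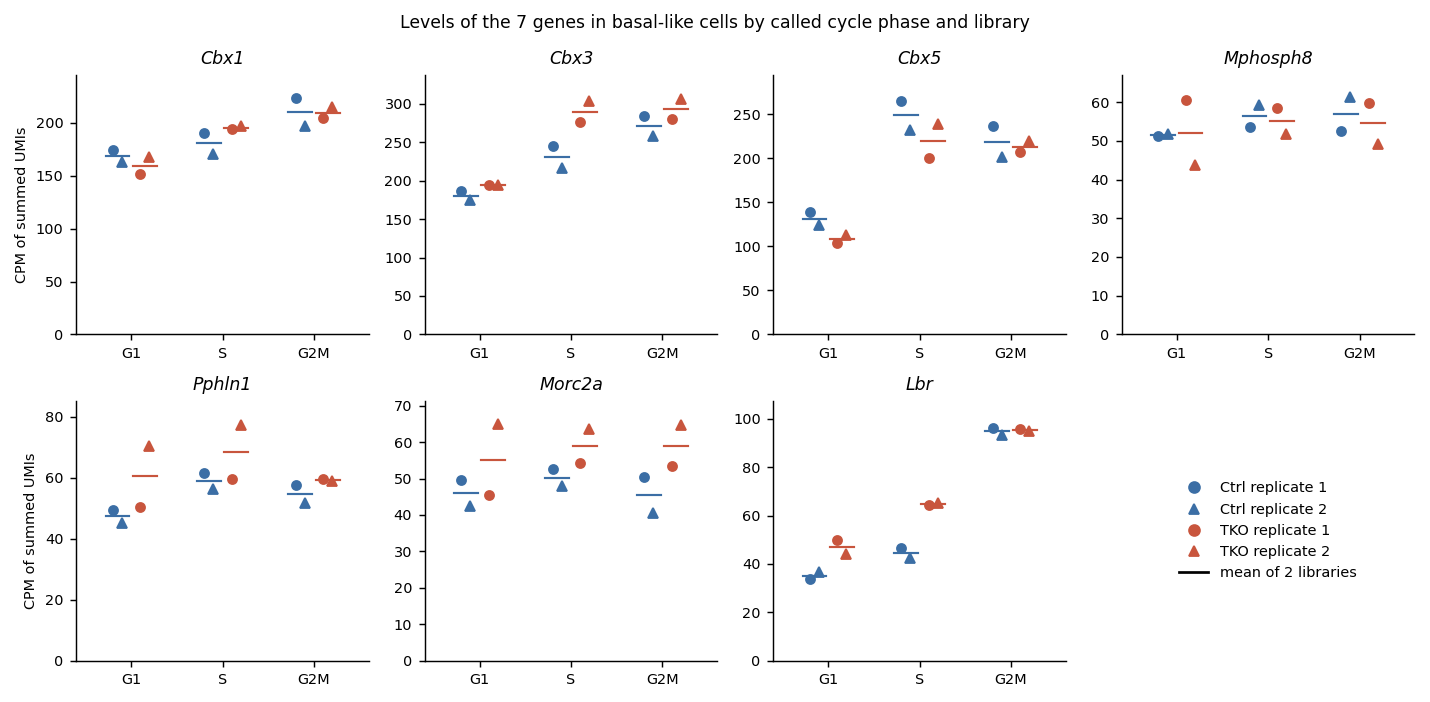
Level of each of the 7 genes (CPM of summed UMIs, linear axis from 0) in basal-like cells called G1, S or G2M, with 1 point per library and a line at the mean of 2 libraries. Lbr of the TKO libraries lies above Ctrl in G1- and S-called cells, and the 4 libraries lie between 93.5 and 96.3 CPM in G2M-called cells.

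The phase mix of basal-like cells differed between genotypes. Of Ctrl basal-like cells 28.8% and 36.6% were called G1, against 14.5% and 17.7% of TKO cells, and 33.9% and 29.7% were called G2M, against 50.3% and 46.6%. The shares called S were 37.3% and 33.6% in Ctrl and 35.2% and 35.7% in TKO. Because Lbr is high in G2M-called cells, its level was recomputed with each library weighted to the mean Ctrl phase mix. The weighted Lbr level was 58.2 and 56.7 CPM in Ctrl and 69.7 and 67.8 CPM in TKO. The groups still did not overlap, and the log2 ratio of the means was 0.26 weighted against 0.40 unweighted. For Cbx3 it was 0.19 weighted against 0.28 unweighted, without overlap in either.

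Lbr was next compared within each called phase. The separate fits of S-called and of G2M-called cells were chosen after the data were seen. In S-called basal-like cells it stood at 46.7 and 42.4 CPM in Ctrl and 64.4 and 65.2 CPM in TKO. Both TKO libraries were higher and Lbr rose 1.46-fold (log2 change 0.54, 95% interval 0.26 to 0.82, SE 0.119, edgeR adjusted p = 0.0351), the 1 call among the 7 genes where 9.2% of genes were called. In G1-called cells it stood at 33.7 and 36.5 CPM in Ctrl and 49.9 and 44.3 CPM in TKO, from 153 to 321 UMIs per library, and was not called (log2 change 0.38, SE 0.146, edgeR adjusted p = 0.21). None of the 7 genes was called in G1-called cells, where 5.79% of genes were. In G2M-called cells it stood at 96.3 and 93.5 CPM in Ctrl and 95.9 and 94.8 CPM in TKO. The groups overlapped, the log2 change was 0.02 (95% interval -0.21 to 0.25), and edgeR called none of the 7 genes where 15.4% of genes were called. The largest change of the 7 in G2M-called cells was that of Morc2a, at 50.4 and 40.6 CPM in Ctrl and 53.3 and 64.7 CPM in TKO without overlap (log2 change 0.39, SE 0.155, 95% interval 0.03 to 0.75, edgeR adjusted p = 0.135). Morc2a passed the test there under 3 of 16 alternatives, namely without the expression filter, without TKO replicate 1 and with crossed replicate numbers, and its adjusted p ran from 0.0189 to 0.438 over the 16. With S- and G2M-called cells pooled, where 13.5% of genes were called, Lbr was not called (log2 change 0.28, SE 0.0968, edgeR adjusted p = 0.0989), and neither were the other 6. The S-phase call was lost without Ctrl replicate 1 (adjusted p = 0.162), without Ctrl replicate 2 (0.226), with the replicate block (0.0993) and in thinned cells (0.22), and also at 3000 genes (0.0549) and a Leiden resolution of 2 (0.0531).

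The difference between phases was itself tested, as a phase-by-genotype term. The Lbr change in S-called cells exceeded that in G2M-called cells by 0.52 on the log2 scale (SE 0.0973, 95% interval 0.31 to 0.72, edgeR adjusted p = 0.00682), where 1.49% of genes were called. The call was lost without Ctrl replicate 1 and without Ctrl replicate 2, while the difference stayed between 0.46 and 0.58 over its 7 alternatives. The Lbr difference of G1- minus G2M-called cells was 0.34 (SE 0.125, edgeR adjusted p = 0.112), where 8.11% of genes were called. In that contrast Cbx5 differed in the other direction, by -0.32 (SE 0.0873, edgeR adjusted p = 0.0298). Cbx5 stood at 139 and 124 CPM in Ctrl and 104 and 113 CPM in TKO G1-called cells, and at 236 and 201 against 207 and 220 CPM in G2M-called cells. The Cbx5 call was lost with DESeq2 size factors (adjusted p = 0.0592), with library totals (0.1) and without any single library (0.0735 to 0.245).

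The 50 genes of the G2M list, which had defined the phases, also differed between genotypes within them. They summed to 3182 and 3294 CPM in Ctrl and 4408 and 4022 CPM in TKO S-called cells, with 9 raised and 0 lowered. Of all 14343 genes tested in S-called cells, 822 were raised and 498 lowered. In G2M-called cells the 50 genes summed to 11988 and 12014 CPM in Ctrl and 10760 and 10845 CPM in TKO, with 0 raised and 8 lowered. Of all 14877 genes tested there, 1456 were raised and 828 lowered. In G1-called cells the sums were 1367 and 1355 CPM against 1764 and 1521 CPM. A cell's called phase is a range of a score, and 13.3% and 13% of Ctrl but 7.2% and 7.92% of TKO basal-like cells lay within 0.05 of the boundary between G1 and the other phases. The part of these shifts in the Lbr values was not tested. In hair follicle-like cells, of which 31.5% and 25.3% were called G2M in Ctrl and 45.7% and 39.0% in TKO, Lbr was higher in TKO among S-called and lower among G2M-called cells, with 47.3 and 57.4 CPM against 69.5 and 64.5 CPM in S-called cells and 106 and 108 CPM against 92.1 and 101 CPM in G2M-called cells.

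**Figure D4:**
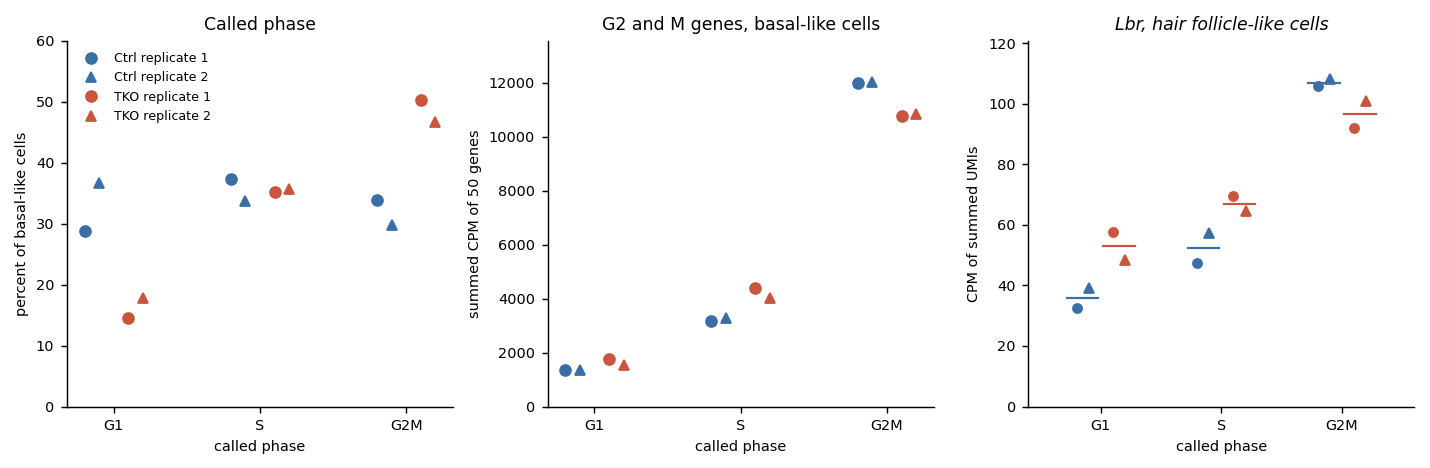
Left, percent of basal-like cells called in each phase; middle, summed level of the 50 G2M list genes in basal-like cells (CPM, linear axis); right, Lbr in hair follicle-like cells (CPM of summed UMIs), with 1 point per library and, on the right, a line at the mean of 2 libraries. TKO libraries have more G2M-called cells, and their G2M list sums are above Ctrl in S-called and below Ctrl in G2M-called cells.

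Lbr was also examined in sorted cells that are not keratinocytes, in which K14 is not a defining gene. In immune-like cells it stood at 64.6 and 62.0 CPM in Ctrl and 77.8 and 72.9 CPM in TKO, from 81, 90, 400 and 422 UMIs. In erythroid-like cells it stood at 44.6 and 39.2 CPM in Ctrl and 58.7 and 51.4 CPM in TKO, from 24, 25, 58 and 204 UMIs. In fibroblast-like cells it stood at 28.6 and 35.4 CPM in Ctrl and 50.6 and 37.5 CPM in TKO, from 46, 51, 191 and 79 UMIs. The TKO libraries were above the Ctrl libraries without overlap in each of these classes, as in keratinocytes, although the counts are small and no test was made. The share of all genes with such a separation is not given for these classes or for keratinocytes. In immune-like cells Pphln1 was also higher without overlap (44.7 and 41.3 against 53.9 and 54.0 CPM). In fibroblast-like cells so was Cbx5 (112 and 104 against 136 and 116 CPM), and in erythroid-like cells so were Cbx1, Mphosph8 and Morc2a. The remaining genes of the 7 overlapped. Cbx3, for example, overlapped between genotypes in immune-like cells (123 and 101 CPM against 115 and 110 CPM) and in fibroblast-like cells (226 and 188 CPM against 202 and 220 CPM). Summed immune markers in keratinocytes were 4.33 and 6.76 CPM in Ctrl and 12.03 and 14.3 CPM in TKO, with 0 of 8 markers at 0. Summed muscle and pericyte markers (5 genes) were 0.702 and 1.79 CPM in Ctrl and 8.54 and 17.9 CPM in TKO keratinocytes, but at most 0.368 CPM in basal-like cells of any library. Summed endothelial markers (6 genes) were 13.0 and 15.9 CPM against 32.2 and 23.0 CPM in keratinocytes and 17.6 and 18.1 CPM against 37.6 and 25.3 CPM in basal-like cells. Immune markers in basal-like cells were 2.88 and 4.73 CPM in Ctrl and 6.72 and 8.94 CPM in TKO. Other sums were lower in TKO basal-like cells, namely fibroblast markers (7 genes, 1262 and 1392 CPM against 1022 and 871 CPM) and Schwann cell markers (5 genes, 45.9 and 49.1 CPM against 29.3 and 29.6 CPM). Merkel markers were lower there too (8 genes, 29.0 and 24.3 CPM against 20.4 and 15.3 CPM). The part of these markers in the values of the 7 genes was not tested.

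Since recombination was mosaic, TKO basal-like cells were also divided by whether they held a UMI of 20 genes that were called as raised in TKO, after thinning to 5000 UMIs. Such a UMI was found in 313 of 945 cells (33.1%) of TKO replicate 1 and in 310 of 897 cells (34.6%) of TKO replicate 2, whereas Ctrl cells lack it by the choice of genes (at most 1 CPM in Ctrl). Lbr stood at 85.6 CPM in cells with and 68.4 CPM in cells without such a UMI in TKO replicate 1, and at 78.1 and 70.2 CPM in TKO replicate 2. In TKO replicate 2 the cells with and without such a UMI also differed in phase mix, with 21.6% against 15.7% called G1, 29.4% against 39.0% called S and 49.0% against 45.3% called G2M, whereas in TKO replicate 1 the G2M-called shares were 50.8% and 50%. Within a called phase, Lbr was higher in cells with such a UMI among S-called cells (81.8 against 49.3 CPM, and 65.9 against 53.3 CPM) and G2M-called cells (99.4 against 86.1 CPM, and 107 against 95.5 CPM), and lower among G1-called cells (45.5 against 53.8 CPM, and 29.9 against 39.1 CPM, from 10 to 25 UMIs). Cells without such a UMI were above the thinned Ctrl values of 57.8 and 57.7 CPM. Setdb1 did not separate these cells in the same way, with 37.7 against 38.3 CPM in TKO replicate 1 and 38.1 against 47.4 CPM in TKO replicate 2. Cbx5 (175 against 183 CPM, and 197 against 217 CPM) was lower in cells with such a UMI in both libraries, and Cbx3 was lower as well (249 against 257 CPM, and 279 against 290 CPM). These values are a description of 2 libraries, since cells of 1 library are not replicates and a missing UMI does not show an unrecombined cell.

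The partners of these proteins are given from fixed lists, beside a background of 861 genes raised and 497 lowered in keratinocytes. Of 7 HUSH-linked genes, 1 rose and 1 fell, with a median log2 change of 0.17. Atf7ip, the cofactor that stabilises SETDB1, rose from 86.2 and 70.9 CPM in Ctrl to 206 and 247 CPM in TKO (log2 change 1.51, SE 0.162, edgeR adjusted p = 0.011), and Setdb1 itself fell as given above. The HUSH scaffold Tasor was not called (84.2 and 71.7 against 86.1 and 92.4 CPM), nor was Trim28 (83.4 and 88.7 against 108 and 88.1 CPM), the corepressor that carries SETDB1 to zinc finger proteins. Of 6 H3K9 methyltransferases 0 rose and 1, Setdb1, fell. Of 5 Polycomb chromobox genes, which share the chromodomain with HP1 but read H3K27 methylation, 0 rose and 1 fell, namely Cbx6 (50.2 and 49.4 against 36.6 and 29.7 CPM, log2 change -0.61, edgeR adjusted p = 0.044).

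Of 17 HP1 partners none was called across keratinocytes, with a median log2 change of 0.16 and 4 at an unadjusted p under 0.05. At that cut there were 5004 of the 20001 genes tested in keratinocytes. In basal-like cells 2 of the 17 partners rose, with 1556 of all genes raised and 897 lowered there. They were Chaf1b (39.3 and 33.6 against 65.1 and 49.995 CPM, log2 change 0.66, edgeR adjusted p = 0.0302), a subunit of the chromatin assembly factor that works at replication forks, and Sgo1 (33.0 and 31.0 against 43.1 and 42.6 CPM, log2 change 0.43, edgeR adjusted p = 0.0444), which protects centromeric cohesion in mitosis. Of the 3 MORC genes tested besides Morc2a, out of 4, none was called. Of 14 lamina and inner nuclear membrane genes, the neighbours of LBR, none was called across keratinocytes, and in basal-like cells 1 rose, Banf1 (141 and 139 against 208 and 187 CPM, log2 change 0.50, edgeR adjusted p = 0.0209), which encodes a DNA-bridging protein of the nuclear envelope. Lmnb1, whose product LBR binds, had a log2 change of 0.35 in basal-like cells (237 and 218 against 293 and 286 CPM, edgeR adjusted p = 0.0588). Of 16 sterol synthesis genes none was called across keratinocytes, and Hsd17b7 (log2 change 0.53) rose in basal-like cells. Tm7sf2, the other sterol C14 reductase, was not called there (3.11 and 3.26 against 2.73 and 2.06 CPM). Of the 42 S phase genes 4 rose and 0 fell across keratinocytes, and of the 50 G2M genes 9 rose and 0 fell, among them Psrc1 (log2 change 1.02), Ube2c (0.86) and Cdk1 (0.70). The Atf7ip call held under all 13 alternatives in keratinocytes, whereas that of Setdb1 was lost under 7 of 13 and that of Cbx6 under 6 of 13. In basal-like cells the call of Sgo1 was lost under 9 of 16 alternatives and that of Hsd17b7 under 13 of 16. None of 6 H3K9 demethylase genes was called by edgeR across keratinocytes or in basal-like cells. In either fit 0 of them had an unadjusted p under 0.05, beside 5004 of 20001 and 5289 of 17365 genes tested.

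The genes whose levels ran most like each of the 7 over 12 sums (3 classes in 4 libraries) were taken from 9052 genes with at least 10 CPM. The sums share library, depth and class, so that the coefficients are a description. Cbx5 ran with Mcm4 and Atad5 (Pearson's r of 0.996 for both), and Mphosph8 with Txlna and Gins2 (0.995). Cbx1 ran with Smc1a and Etv5 (0.994 and 0.993), and Cbx3 with Txnrd1 and with its overlapping neighbour Hnrnpa2b1 (both 0.993). Pphln1 ran with Herc2 (0.989), Morc2a with U2surp and Caprin1 (0.987 and 0.983), and Lbr with Orc2 and Ublcp1 (0.981 and 0.968). Among the 7 genes, Cbx1 and Cbx3 were closest to each other (0.987), and the coefficients of Lbr ran from 0.488 with Mphosph8 to 0.765 with Pphln1.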

How the data were processed

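The authors used the 10x Genomics 3′ v3 chemistry and aligned to GRCm39 with Cell Ranger. The matrix headers give version 7.1.0, whereas the methods name another, and the annotation release is not given in the sources used here. The deposited values are raw UMI counts per gene and cell, not normalized. Both the labels (E16.5) and the study's litter sheet, which gives another day, name the age, and the labels were followed.

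Of 19789 barcodes (70749496 to 89655247 UMIs per library), 11221 had at least 2000 genes and under 10% mitochondrial UMIs. Scrublet (scanpy 1.11.5) marked 1, 2, 3 and 31 cells by its own threshold, so the top-scoring share at 0.8% per 1000 barcodes was left out, 457 cells in all. Cells were aligned by Harmony, in an implementation written for this purpose (30 components, 2000 variable genes), and clustered with leidenalg 0.10.2 at resolution 1 on 20 neighbours. Classes were named from marker lists. Keratinocytes (9208) were clustered again with 1365 genes left out, namely the 7 genes and those called between genotypes. Cells named Merkel-like in TKO lacked summed Merkel markers (78.3 and 186 CPM against 5166 and 5783 CPM in Ctrl), and that class is not compared. Phases were called on cells thinned to 5000 UMIs.

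UMIs were summed per class and library, and the 4 sums were tested in edgeR 4.0.16 (R 4.3.3) by quasi-likelihood with TMM factors and filterByExpr, with Benjamini-Hochberg adjustment over all genes tested and a threshold of 0.05. Classes and phases were compared by interaction terms with a term for library. DESeq2 1.42.0 was an alternative. The scripts were tested on simulated data. All 7 genes are named in every fit, with the called genes of the other lists, up to 4 per list and direction by size, and other list genes only where a comparison needs them. The 7 genes, the lists and the comparisons were chosen with earlier results of these data known. The S- and G2M-called fits, the phase differences and the phase-weighted levels were added after the data were seen. Whether same-numbered replicates were paired was checked by the correlation of their deviations from the group means, which was -0.315 to -0.124 over the fits. Libraries are separate embryos, n = 2 per group. Counting intervals and replicate spread cover these libraries only. The files hold no comparison columns of the authors. Some values of single genes outside the 7 are not reported here.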

Additional observations from a re-analysis of the deposited data

How the results depend on the processing

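Of 929 recomputed values for the 7 genes, 838 kept their direction and their side of the threshold, 23 lost a call, 8 gained one and 60 changed sign. None of the sign changes concerned a called value. The Lbr change in basal-like cells stayed between 0.34 and 0.44 on the log2 scale under its 16 alternatives, with adjusted p from 0.0201 to 0.214. Across keratinocytes Lbr stayed between 0.35 and 0.41, with adjusted p from 0.0261 to 0.332. Cbx3 in basal-like cells stayed between 0.21 and 0.37, with adjusted p from 0.0438 to 0.522. Of 464 recomputed values for the other list genes named, 91 lost a call, 8 gained one and none changed sign. The counting depth of Lbr in G1-called cells (153 to 321 UMIs per library) limits what can be seen there.

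The labels do not say that replicate numbers pair the samples, which were separate embryos. The correlation of same-numbered deviations was below -0.1 in each fit, which cannot show whether any libraries were handled together. With the replicate block the counts of called genes were 737 (keratinocytes), 2001 (basal-like cells), 774 (hair follicle-like cells), 68 (differentiating-like cells), 596 (G1-called basal-like cells), 1874 (S- or G2M-called basal-like cells), 777 (S-called basal-like cells) and 1996 (G2M-called basal-like cells). With the numbers crossed, chosen after the data were seen, they were 3607 (keratinocytes), 3665 (basal-like cells), 1141 (hair follicle-like cells), 1673 (differentiating-like cells), 948 (G1-called basal-like cells), 3380 (S- or G2M-called basal-like cells), 3106 (S-called basal-like cells) and 3177 (G2M-called basal-like cells).

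Leaving out each library in turn gave 470 to 1796 genes (keratinocytes), 679 to 3144 genes (basal-like cells), 373 to 1908 genes (hair follicle-like cells), 95 to 779 genes (differentiating-like cells), 586 to 873 genes (G1-called basal-like cells), 1210 to 2524 genes (S- or G2M-called basal-like cells), 279 to 2903 genes (S-called basal-like cells), 1575 to 2740 genes (G2M-called basal-like cells), 0 to 115 genes (the difference of hair follicle-like minus basal-like), 0 to 752 genes (the difference of differentiating-like minus basal-like), 265 to 995 genes (the difference of G1-called basal-like minus G2M-called basal-like) and 25 to 302 genes (the difference of S-called basal-like minus G2M-called basal-like). With DESeq2 the count was 2525 (keratinocytes) and 519 (differentiating-like cells). Without the expression filter the count was 573 (keratinocytes), 1688 (differentiating-like cells), 1802 (G1-called basal-like cells), 3939 (S- or G2M-called basal-like cells), 2804 (S-called basal-like cells), 3688 (G2M-called basal-like cells), 256 (the difference of hair follicle-like minus basal-like) and 443 (the difference of S-called basal-like minus G2M-called basal-like). In cells thinned to 5000 UMIs the count was 1377 (basal-like cells), 419 (hair follicle-like cells), 397 (G1-called basal-like cells), 1012 (S- or G2M-called basal-like cells), 557 (S-called basal-like cells), 1115 (G2M-called basal-like cells) and 350 (the difference of differentiating-like minus basal-like). With at least 3000 genes per cell the count was 1698 (hair follicle-like cells), 1232 (G1-called basal-like cells) and 302 (the difference of differentiating-like minus basal-like). At Leiden resolution 2 the count was 117 (differentiating-like cells) and 341 (the difference of differentiating-like minus basal-like). Without Harmony correction the count was 468 (differentiating-like cells), 1920 (G1-called basal-like cells) and 298 (the difference of hair follicle-like minus basal-like). With doublets kept the count was 180 (the difference of hair follicle-like minus basal-like). At Leiden resolution 0.5 the count was 77 (the difference of hair follicle-like minus basal-like) and 359 (the difference of differentiating-like minus basal-like). With library totals the count was 467 (the difference of differentiating-like minus basal-like). The 0 counts without a Ctrl library came from edgeR, where 773 to 915 genes (hair follicle-like minus basal-like) and 2090 to 2416 genes (differentiating-like minus basal-like) had an unadjusted p under 0.05; DESeq2 was not run for these differences. The cause of these changes in count was not tested.

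Sign changes of small log2 changes were as follows. For Cbx5 it was -0.0166 to 0.0772 without a single library and -0.0143 in cells thinned to 5000 UMIs (keratinocytes), -0.12 to 0.11 without a single library (basal-like cells), -0.17 to 0.12 without a single library, 0.0207 with doublets kept, 0.027 with at least 3000 genes per cell and 0.0179 at Leiden resolution 0.5 (hair follicle-like cells), -0.0267 without Harmony correction (differentiating-like cells), -0.19 to 0.0041 without a single library (S- or G2M-called basal-like cells), -0.12 to 0.0871 without a single library and 0.0246 without the expression filter (G2M-called basal-like cells). For Mphosph8 it was -0.15 to 0.0953 without a single library (keratinocytes), -0.12 to 0.0923 without a single library (basal-like cells), -0.12 to 0.0553 without a single library and 0.0114 at Leiden resolution 0.5 (hair follicle-like cells), -0.53 to 0.0592 without a single library (differentiating-like cells), -0.26 to 0.17 without a single library, 0.0139 with library totals, 0.0316 in cells thinned to 5000 UMIs and 0.0177 at Leiden resolution 2 (G1-called basal-like cells), -0.14 to 0.0683 without a single library (S- or G2M-called basal-like cells), -0.11 to 0.0386 without a single library (S-called basal-like cells), -0.17 to 0.0748 without a single library (G2M-called basal-like cells). For Morc2a it was -0.11 to 0.0954 without a single library, -0.0118 with DESeq2, -0.015 without the expression filter, -0.0238 with doublets kept, -0.0167 with at least 3000 genes per cell, -0.0109 at Leiden resolution 0.5 and -0.0239 without Harmony correction (differentiating-like cells), -0.0726 to 0.47 without a single library (G1-called basal-like cells). For Cbx3 it was -0.0237 with at least 3000 genes per cell and -0.0446 without Harmony correction (G1-called basal-like cells). For Pphln1 it was -0.00207 to 0.41 without a single library (S-called basal-like cells). For Cbx1 it was -0.072 to 0.0873 without a single library, -0.00728 with library totals, -0.0196 in cells thinned to 5000 UMIs, -0.00592 with doublets kept, -0.0336 with at least 3000 genes per cell, -0.0173 at Leiden resolution 0.5 and -0.0157 without Harmony correction (G2M-called basal-like cells). For Lbr it was -0.0228 in cells thinned to 5000 UMIs, -0.0525 with at least 3000 genes per cell, -0.0018 at Leiden resolution 0.5, -0.0131 at Leiden resolution 2 and -0.00808 without Harmony correction (G2M-called basal-like cells), 0.0373 with library totals and 0.0619 in cells thinned to 5000 UMIs (the difference of differentiating-like minus basal-like).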
